A study of Mus musculus with 6 samples.

Results

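The 45 genes described here are nuclear genes of the last steps of mitochondrial respiration: 14 of complex III, 14 of complex IV and 17 of ATP synthase, among 14408 genes in the table. They were picked by symbol, in a choice made with earlier results of these data known. Those starting with Uqcr or Uqcc stand for complex III, Cox4 to Cox8 for complex IV, and Atp5 for ATP synthase. Polyadenylated RNA was sequenced from 6 libraries whose labels give heart tissue, taken from the left ventricle, of C57BL/6J males with a given age of 8 weeks. Because of the model and treatment periods that follow, this is not read here as the age at tissue collection. Both groups carried the same model of HFpEF (heart failure in which the ejection fraction is preserved). It was made with a high-fat diet plus 0.5 g/L of L-NAME in drinking water over 8 to 12 weeks, which blocks nitric oxide synthesis. The PBS group (3 libraries) then had the vehicle, and the L-proline group (3 libraries) had this amino acid by daily intraperitoneal injection at 300 mg/kg over 4 to 8 weeks. No group without the model was part of the comparison. Whether each library came from its own mouse is not stated, and the p-values therefore reflect library-to-library spread that may be technical.

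Complex III takes electrons from ubiquinol and passes them to cytochrome c, complex IV uses them to reduce oxygen to water, and ATP synthase lets the pumped protons flow back to make ATP. Each is built from many nuclear subunits around a few that the mitochondrial genome encodes. The heart is known for a very high content of these complexes and for muscle-specific isoforms of some complex IV subunits.

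Values are in FPKM, that is fragments relative to gene length and to the size of the library. Totals recovered from the FPKM values ran from 34990473 to 37498030 fragments per library, of which the 45 genes took 0.663% to 0.771%. Differences were tested with limma on log2(FPKM + 1) for genes with a mean of at least 1 FPKM. A gene is said to have risen or fallen where its Benjamini-Hochberg adjusted p over all 10500 tested genes was under 0.05. Most markers of heart muscle were near 0 or not listed, which goes against the labelled heart tissue. The tissue label is therefore in doubt, and the values below are those of the libraries as labelled. Of 15 cardiomyocyte markers other than Cox genes, 6 were listed and 2 reached a mean of 1 FPKM. Their summed level was 34.8 to 36.5 FPKM in PBS and 16.8 to 19.96 in L-proline, most of it cardiac troponin T (Tnnt2), which fell from 31.99 ± 0.777 to 14.5 ± 1.51. Titin (Ttn) had group means of 0.00461 and 0.00475 FPKM, and Myh6, Myl3, Actc1, Pln, Mybpc3, Actn2, Ckmt2 and Ckm were not listed. The 8 listed of 10 fibroblast markers summed to 6177 to 6425.5 FPKM in PBS and 6438 to 6772 in L-proline, with 3 higher (Col1a1, Col1a2 and Col3a1) and 2 lower (Pdgfra and Vim). The smooth muscle and pericyte list summed to 1168 to 1299 FPKM in PBS and 1051 to 1272 in L-proline, with 0 called. Most of this was Acta2 and Des, with means of 838 and 223 FPKM, while Myh11 and Rgs5 were near 0 (0.0227 and 0.0762). Endothelial markers did not sum to over 0.302 FPKM in any library, and 0 of 5 adipocyte markers were listed. Among immune and mesothelial markers, Ccl5 went from 31.8 ± 0.338 to 82.4 ± 13.5 FPKM, Cd68 from 3.17 ± 0.536 to 5.19 ± 0.297 and Msln from 37.97 ± 1.79 to 20.2 ± 0.782, and each passed. The rest of these lists gave no call. Lyz2, at a mean of 1.78 FPKM, did not pass (limma, adjusted p = 0.723). Cd8a, Csf1r, Wt1 and Lrrn4 were too low for the test, with means of 0.0129, 0.167, 0.520 and 0.0391. Cd3e, Cd3d, Cd4, Nkg7, Adgre1, Itgam, Ptprc and Upk3b were not listed. The part of these marker differences in the results was not tested. In such bulk RNA, fewer cells of a type and less RNA per cell cannot be told apart.

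In the L-proline libraries Uqcc2, Uqcrq, Cox7a2l, Cox7c and Atp5md rose, with log2 fold changes of 0.23 to 0.48, and Atp5d fell by 0.24 on the log2 scale. The other 37 of the 43 tested genes did not pass. That is 14.0% called (limma, adjusted p under 0.05), against 19.6% of all tested genes. In detail, 5 of 43 rose where 7.5% of all genes did, and 1 of 43 fell where 12.1% did. An unadjusted limma p under 0.05 was found for 10 of the 43, and for 3687 of all 10500 tested genes. The L-proline libraries all lay above the PBS libraries for 7 of the 43, against 16% of all tested genes, and all below for 2, against 24%. The log2 fold change was above 0 for 32 of 43, while 40.6% of all tested genes were above 0. The median was 0.09 over the 43 and -0.06 over all tested genes. The split moved with the scaling, to 6 higher and 0 lower by median of ratios, and to 5 higher and 3 lower after quantile normalization.

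The number of calls moved with single libraries, among these genes and over all tested genes. With limma, 0 of the 43 passed without PBS 1 and 0 without PBS 3, with 8 genes at an unadjusted p under 0.05 in each case. It was 3 without PBS 2, 1 without L-proline 2 and 4 without L-proline 3, and it was 10 without L-proline 1, all higher. Over all tested genes, 2056 of 10500 passed in the main fit. This went to 976 of 10484 without PBS 1 and 874 of 10484 without PBS 3, with 2726 and 2606 at an unadjusted p under 0.05. It was 1435 of 10503 without PBS 2, 1534 of 10506 without L-proline 2 and 1616 of 10520 without L-proline 3. Without L-proline 1 it was 2770 of 10488 (26.4%). Limma-voom on the recovered fragments called 3, namely Uqcc2, Cox7a2l and Cox7c, and 2038 of all 10500 tested genes.

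**Figure D1:**
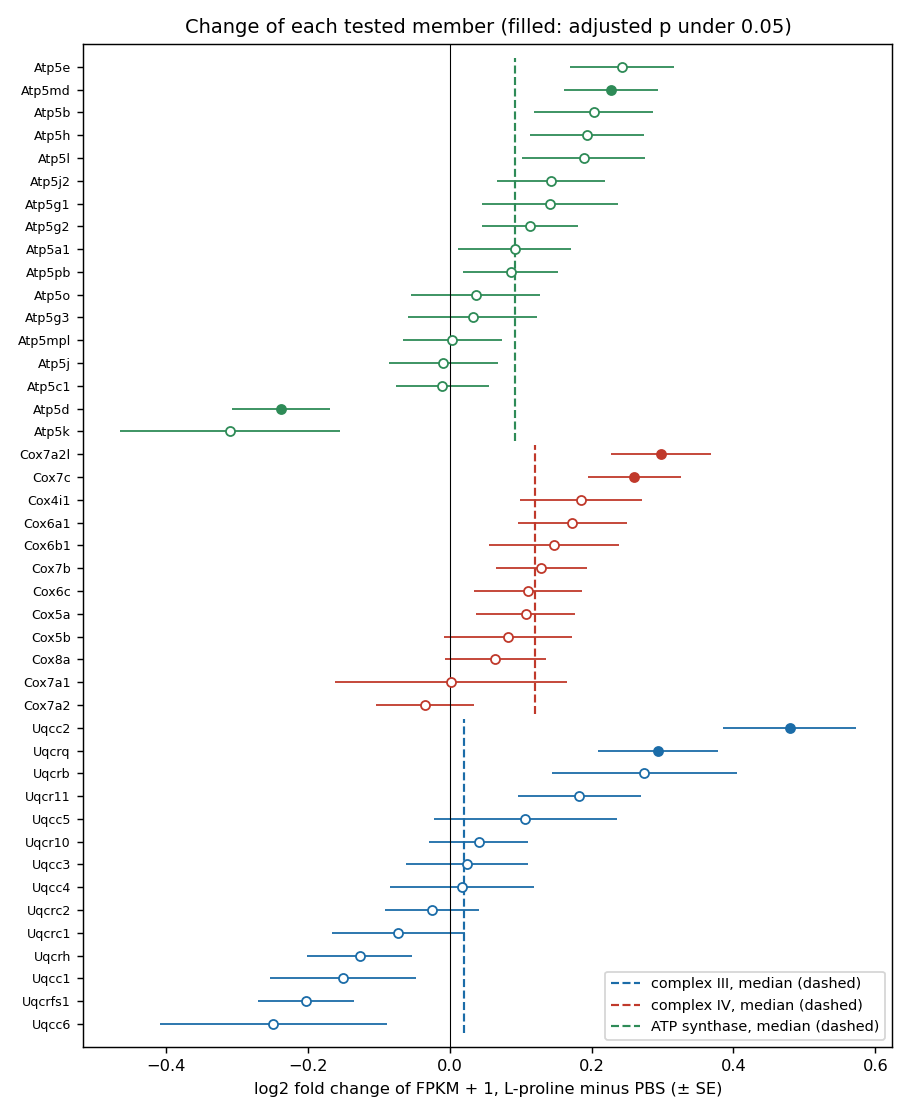
Log2 fold change of FPKM + 1, L-proline minus PBS, with its standard error, for the 43 tested genes, coloured by complex. Filled points passed the test and dashed lines are the medians of complex III (0.02), complex IV (0.12) and ATP synthase (0.09). Complex III genes spread to both sides of 0, while 11 of 12 complex IV genes lie above it.

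The start regions of genes that passed are shown so that their sequence can be set beside their values. The RefSeq promoter table (GRCm38.p6, an older build than the GRCm39 named in the processing notes) held 34 of the 45 genes and 5 of the 6 that passed. Each line gives the 250 bases upstream of an annotated start, 5′ to 3′ on the gene's strand, with motif matches in capitals. The motifs searched on both strands were GCGC, any base and TGCGC in a row for NRF-1, CCGGAAG for ETS factors such as GABP, TNAAGGTCA for the ERR nuclear receptors, and the CCAAT box. NRF-1, GABP and ERRα are known regulators of respiratory chain genes.
Uqcc2, chr17:27133892-27134141, minus strand: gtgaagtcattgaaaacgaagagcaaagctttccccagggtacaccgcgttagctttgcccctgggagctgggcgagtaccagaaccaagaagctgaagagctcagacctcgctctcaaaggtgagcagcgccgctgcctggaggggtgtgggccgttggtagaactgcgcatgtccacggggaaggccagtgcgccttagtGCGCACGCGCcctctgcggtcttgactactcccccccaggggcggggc
Atp5md, chr19:47090648-47090897, minus strand: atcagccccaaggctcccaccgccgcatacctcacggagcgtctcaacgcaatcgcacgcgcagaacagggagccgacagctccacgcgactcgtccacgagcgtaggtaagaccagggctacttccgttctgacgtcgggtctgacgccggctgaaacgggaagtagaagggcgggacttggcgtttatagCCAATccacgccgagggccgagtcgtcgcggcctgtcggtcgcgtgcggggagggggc
Cox7a2l, chr17:83514334-83514583, minus strand: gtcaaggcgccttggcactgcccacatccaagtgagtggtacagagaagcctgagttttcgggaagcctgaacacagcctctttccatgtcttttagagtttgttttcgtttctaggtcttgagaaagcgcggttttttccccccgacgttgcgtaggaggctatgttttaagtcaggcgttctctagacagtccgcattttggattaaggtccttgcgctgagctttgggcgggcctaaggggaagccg
Cox7c, chr13:86046796-86047045, minus strand: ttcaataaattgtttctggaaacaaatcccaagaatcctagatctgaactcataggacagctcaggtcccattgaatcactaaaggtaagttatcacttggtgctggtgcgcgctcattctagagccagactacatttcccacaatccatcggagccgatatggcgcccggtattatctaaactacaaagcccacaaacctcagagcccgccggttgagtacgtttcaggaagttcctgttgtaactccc
Atp5d, chr10:80142025-80142274, plus strand: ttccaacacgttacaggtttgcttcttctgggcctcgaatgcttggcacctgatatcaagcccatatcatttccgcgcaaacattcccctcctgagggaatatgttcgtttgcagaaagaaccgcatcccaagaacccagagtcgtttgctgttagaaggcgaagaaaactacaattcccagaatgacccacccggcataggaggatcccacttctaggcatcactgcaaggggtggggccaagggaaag
Uqcc2 held an NRF-1 match that began 48 bases before the start and Atp5md a CCAAT box 58 bases before it, and neither overlapped another motif. Cox7a2l, Cox7c and Atp5d had none of the 4 motifs in this window. For Atp5d a further annotated start, with the window chr10:80142065-80142314, is not shown and also had none. In the shares that follow, a gene held a motif where the window of any of its annotated starts did. Over the 34 genes with a promoter, 6 (17.6%) held the NRF-1 motif, against 10.1% of 8352 tested genes with a promoter and 4.23% of all 27025 genes in the table. The ETS motif was in 8 of 34 (23.5%), against 17% of tested genes and 7.83% of all. The CCAAT box was in 19 of 34 (55.9%), against 41.2% of tested genes and 37.5% of all, and the ERR motif in 1 gene, Atp5g3 (2.94%, against 0.706% and 1.3%). Besides Uqcc2, the genes with an NRF-1 match were Atp5c1, Atp5g2, Atp5h, Atp5k and Cox6a1, of which 0 of 5 passed with limma. Of these, Atp5h had an unadjusted p of 0.0419, and limma-voom called none. Such matches describe letters only and say nothing on binding.

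In complex III, 2 of 14 genes rose and 0 fell, with 1 more (Uqcrfs1) lower at an unadjusted p under 0.05. Limma-voom gave 1 higher and 0 lower. Uqcc2, which helps the newly made cytochrome b enter the complex, had the largest change of all 43 tested genes. It stood at 112, 129 and 116 FPKM in PBS 1, 2 and 3 and at 151, 164 and 186 in L-proline 1, 2 and 3. Every L-proline library exceeded every PBS library, and the difference was 0.48 ± 0.09 on the log2 scale (limma, adjusted p = 0.0103). The call was just missed without PBS 1 (adjusted p = 0.0514) and without PBS 3 (0.0537).

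The other assembly factors did not pass. Uqcc3 was 11.6 ± 1.10 FPKM (SD, n = 3, as for all means here) in PBS and 11.8 ± 0.158 in L-proline, Uqcc4 6.11 ± 0.410 and 6.21 ± 0.740, and Uqcc5 6.84 ± 0.563 and 7.50 ± 1.39. Uqcc1 was 2.20 ± 0.185 and 1.88 ± 0.278, and Uqcc6 3.08 ± 0.412 and 2.47 ± 0.694. Uqcc2 was thus the most abundant of the 6 in every library, and the other 5 had overlapping groups and an adjusted p of at least 0.302.

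Among the structural subunits, the small subunit gene Uqcrq rose. It was 58.6, 64.5 and 53.5 FPKM in PBS 1, 2 and 3 and 68.0, 73.3 and 75.4 in L-proline 1, 2 and 3, without overlap, which is 0.29 ± 0.09 on the log2 scale (limma, adjusted p = 0.0462). The call ended under 6 of 13 alternatives, among them no filter on low values (0.0561) and limma-voom (0.0562), and without PBS 1 (0.139), PBS 3 (0.186), L-proline 2 (0.113) or L-proline 3 (0.106). Its gene model overlaps that of Gdf9, which was at a mean of 0.142 FPKM.

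The Rieske iron-sulfur protein gene Uqcrfs1, which carries electrons from ubiquinol to cytochrome c1, was lower in every L-proline library than in every PBS library. It was 62.4, 64.9 and 62.0 FPKM in PBS 1, 2 and 3 and 51.4, 55.9 and 56.9 in L-proline 1, 2 and 3. At a log2 fold change of -0.20 ± 0.07 it did not pass (limma, adjusted p = 0.0723). It passed with quantile normalization (0.0447), and with mitochondrial and the 20 most abundant genes left out (0.0226). The core protein genes Uqcrc1 and Uqcrc2 had log2 fold changes of -0.07 ± 0.09 and -0.02 ± 0.07, with overlapping groups.

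The remaining small subunits had overlapping groups. Uqcrh, the hinge protein that meets cytochrome c1, was the most abundant nuclear complex III transcript, with a mean FPKM of 250.3 ± 14.4 for PBS and 229 ± 13.98 for L-proline. It passed only with quantile normalization (log2 fold change -0.20, adjusted p = 0.0280). A listed pseudogene, Gm12854, overlaps it and had a mean of 17.8 FPKM, so the split of fragments between these is uncertain. Uqcrb, which binds near the ubiquinone site, was 111, 136 and 132 FPKM in PBS 1, 2 and 3 and 160.1, 175 and 126 in L-proline 1, 2 and 3. L-proline 3 thus lay among the PBS libraries, and without it the adjusted p went from 0.174 to 0.0392. Uqcr11 and Uqcr10 had log2 fold changes of 0.18 ± 0.09 and 0.04 ± 0.07.

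**Figure D2:**
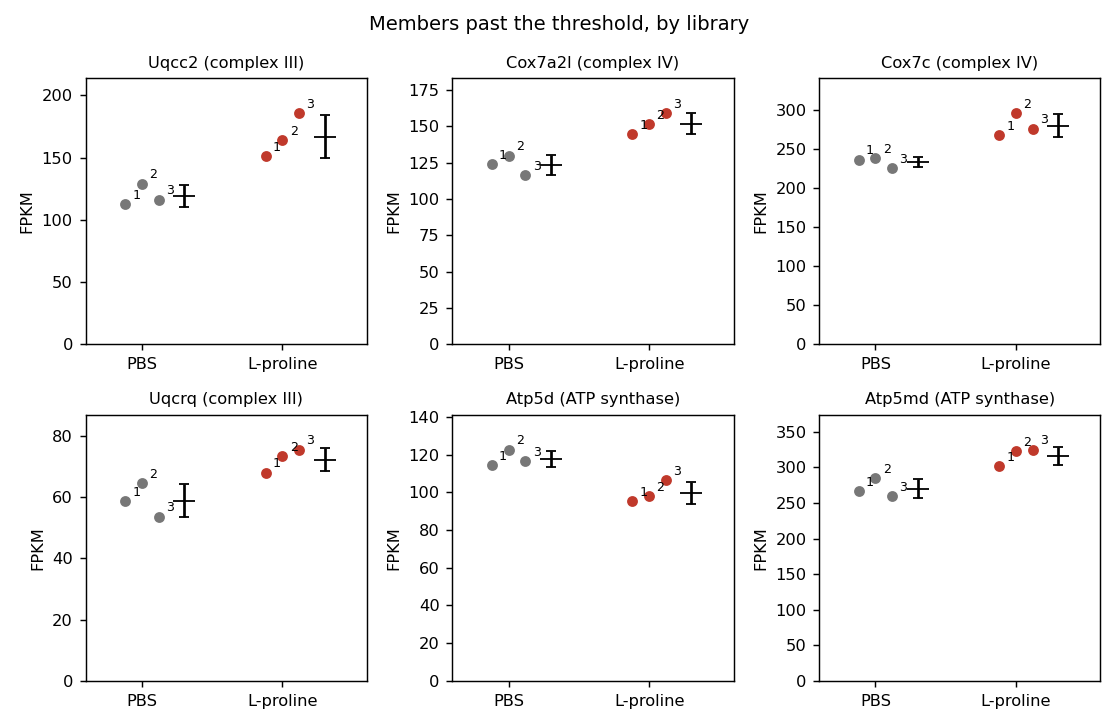
FPKM of the 6 genes that passed the test, from 0, with 1 point per library numbered by replicate and the mean ± SD (n = 3) beside each group. Uqcc2, Cox7a2l, Cox7c, Uqcrq and Atp5md have all L-proline points above all PBS points, and Atp5d has them all below.

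In complex IV, 2 of 12 tested genes rose and 0 fell, with 0 lower at an unadjusted p under 0.05 and 0 lower with limma-voom, which also called 2 higher. Cox7a2l is a relative of the Cox7a subunits, known as a factor for joining complex III and complex IV into a supercomplex. Whether its product does so in this mouse strain was not tested. Cox7a2l was 124, 129.6 and 116 FPKM in PBS 1, 2 and 3. It was 144, 152 and 159 in L-proline 1, 2 and 3. No L-proline library fell to the PBS range, and the log2 fold change was 0.30 ± 0.07 (limma, adjusted p = 0.0227). It was lost without PBS 1 (0.0857), PBS 3 (0.116), L-proline 2 (0.0606) or L-proline 3 (0.0533).

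Cox7c, a small membrane subunit, was 236, 238 and 225 FPKM in PBS 1, 2 and 3 and 267, 296 and 276 in L-proline 1, 2 and 3. The groups did not overlap, and the log2 fold change was 0.26 ± 0.07 (limma, adjusted p = 0.0287). It was lost without PBS 1 (0.0973), PBS 2 (0.0592), PBS 3 (0.134) or L-proline 2 (0.0843).

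The other 9 broadly expressed subunits did not pass. Cox7b was higher in every L-proline library (167, 164 and 155 FPKM in L-proline 1, 2 and 3) than in every PBS library (144, 154 and 146), but the nearest values differed by under 1 FPKM and the adjusted p was 0.191. Cox4i1, which is among the first nuclear subunits to join the complex, was 305 ± 16.1 in PBS and 348 ± 34.7 in L-proline (log2 fold change 0.18 ± 0.09, adjusted p = 0.167). Cox6a1 was 319 ± 13.3 and 360.3 ± 28.9 (0.17 ± 0.08, 0.150). Both passed without L-proline 1, at adjusted p = 0.0446 and 0.0402. Cox6c, the most abundant nuclear complex IV transcript, was 437 ± 18.5 and 472 ± 36.4, and Cox8a 365 ± 7.04 and 383 ± 28.2. Cox5a, Cox5b and Cox6b1 had log2 fold changes of 0.11, 0.08 and 0.15. Cox7a2, at -0.04 ± 0.07, was the only tested complex IV gene with a log2 fold change below 0, and its model overlaps that of Tmem30a.

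In heart muscle Cox6a2, Cox7a1 and Cox8b are the typical forms of their subunits. Cox8b is not among the genes listed here, nor were Cox4i2, Cox6b2 and Cox8c, which are tied to lung or testis. These libraries, as given above, also had most other heart muscle markers near 0 or not listed. Cox7a1 was 5.16, 5.93 and 3.38 FPKM in PBS 1, 2 and 3 and 4.32, 4.85 and 5.02 in L-proline 1, 2 and 3, while Cox7a2 was 119 ± 4.48 and 116 ± 6.56. The muscle form thus made up 3.88% ± 0.965 of the pair in PBS and 3.91% ± 0.148 in L-proline, with overlapping groups. Cox7b2, a testis form, peaked at 0.401 FPKM in L-proline 3 and made up 0.135% ± 0.0900 and 0.179% ± 0.0698 of its pair.

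Cox6a2 was too low for the main test. It rested on 1, 0 and 3 fragments in PBS 1, 2 and 3 and on 13, 12 and 16 in L-proline 1, 2 and 3. On the FPKM scale this is 0.0405, 0 and 0.124 in PBS and 0.537, 0.520 and 0.660 in L-proline. Every L-proline library had more than every PBS library, yet Cox6a1 made up 99.8% of the pair in L-proline and 99.98% in PBS. The Cox6a2 model overlaps that of Itgad, which was not listed, so the source of these few fragments is uncertain. Without the filter, Cox6a2 had an adjusted p of 0.00219 (limma, with 14.7% of 14408 genes called), at fragment numbers where a single fragment matters.

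**Figure D3:**
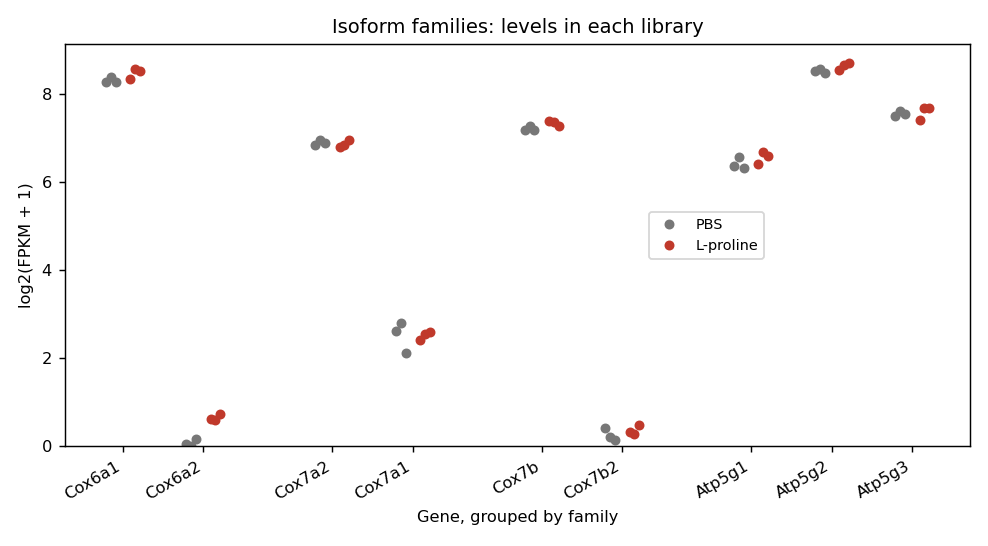
Level as log2(FPKM + 1) of the Cox6a, Cox7a, Cox7b and Atp5g family members in each library, PBS in grey and L-proline in red, 3 points per group. Cox6a2, Cox7a1 and Cox7b2 lie far below their broadly expressed partners in all 6 libraries, and Cox6a2 is higher in the 3 L-proline libraries.

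In ATP synthase, 1 of 17 genes rose and 1 fell, with 4 higher and 1 lower at an unadjusted p under 0.05, and limma-voom called 0 in either direction. Over all tested genes, 3687 of 10500 had an unadjusted limma p under 0.05. Atp5d, the delta subunit of the central stalk, fell. It was 114, 123 and 117 FPKM in PBS 1, 2 and 3 and 95.3, 97.8 and 106 in L-proline 1, 2 and 3, without overlap (log2 fold change -0.24 ± 0.07, limma, adjusted p = 0.0469). Median-of-ratios scaling gave -0.18 (adjusted p = 0.133) and limma-voom -0.24 (0.0553). The call was also lost without PBS 1 (0.117), PBS 2 (0.131), PBS 3 (0.1498), L-proline 1 (0.0718) or L-proline 2 (0.116). Its model overlaps that of Cbarp, which had a mean of 5.19 FPKM.

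Atp5md, which encodes the small subunit DAPIT of the membrane part, rose. It was 267, 285 and 259 FPKM in PBS 1, 2 and 3 and 302, 323 and 325 in L-proline 1, 2 and 3, without overlap (log2 fold change 0.23 ± 0.07, limma, adjusted p = 0.0472). The call was lost with no filter (0.0573) and limma-voom (0.0691), and without PBS 1 (0.165), PBS 2 (0.0551), PBS 3 (0.194), L-proline 2 (0.122) or L-proline 3 (0.0962). Taf5, whose model overlaps it, had a mean of 3.55 FPKM.

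The F1 head and central stalk, where ATP is formed, had members on both sides. The epsilon subunit gene Atp5e was 232, 219 and 215 FPKM in PBS 1, 2 and 3 and 245, 262 and 282 in L-proline 1, 2 and 3. The groups did not overlap, but at 0.24 ± 0.07 on the log2 scale it just missed the threshold (limma, adjusted p = 0.0520). It passed with median-of-ratios scaling (0.0392), with mitochondrial and the 20 most abundant genes left out (0.0432), and without L-proline 1 (0.0236). The catalytic beta subunit Atp5b, the most abundant of all 45 genes, was 734 ± 58.5 in PBS and 845 ± 60.6 in L-proline (0.20 ± 0.08, adjusted p = 0.127). The alpha subunit Atp5a1 was 285 ± 19.5 and 303 ± 21.5, and the gamma subunit Atp5c1 128 ± 3.26 and 127 ± 6.37. Delta and epsilon, which sit together on the central stalk, thus had log2 fold changes of opposite sign.

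The peripheral stalk holds the head in place, and its 4 genes had overlapping groups. Atp5h was 171 ± 12.2 and 196 ± 13.4 FPKM (0.19 ± 0.08, adjusted p = 0.128, and 0.0477 without L-proline 1), while Atp5pb, Atp5o and Atp5j had log2 fold changes of 0.09, 0.04 and -0.01. The c-ring genes Atp5g1, Atp5g2 and Atp5g3, which are known to encode the same mature subunit with different import signals, had overlapping shares in the groups. Atp5g2 supplied 57.4% ± 0.832 of their summed FPKM in PBS and 58.2% ± 1.37 in L-proline, Atp5g3 29.4% ± 0.693 and 28.2% ± 1.04, and Atp5g1 13.2% ± 0.669 and 13.7% ± 0.558. None of the 3 passed (limma, 0 at an unadjusted p under 0.05, 0 with limma-voom).

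Among the other membrane subunits, Atp5k, which takes part in dimer formation, had the lowest log2 fold change of the 43, -0.31 ± 0.15, but did not pass (limma, adjusted p = 0.192). It was 120.3, 118 and 101 FPKM in PBS 1, 2 and 3 and 70.3, 98.3 and 109 in L-proline 1, 2 and 3, so the lowest value came from L-proline 1 and L-proline 3 lay above PBS 3. Atp5l was 123 ± 9.70 and 140.4 ± 11.3 (0.19 ± 0.09), and passed without L-proline 1 (adjusted p = 0.0492). Atp5j2 and Atp5mpl had log2 fold changes of 0.14 and 0.00.

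Set side by side, the median log2 fold change was 0.02 in complex III (from -0.25 to 0.48), 0.12 in complex IV (from -0.04 to 0.30) and 0.09 in ATP synthase (from -0.31 to 0.24). Called genes made up 14.3% of complex III, 16.7% of complex IV and 11.8% of ATP synthase, each below the 19.6% over all tested genes. Above 0 lay 8 of 14, 11 of 12 and 13 of 17 genes. The summed FPKM of complex IV was 2526, 2721 and 2494 in PBS 1, 2 and 3 and 2646, 2935 and 2969 in L-proline 1, 2 and 3. For complex III the sums were 1069.7, 1189 and 1083 against 1124, 1238 and 1224, and for ATP synthase 3464, 3759 and 3430.1 against 3585, 3966 and 4013. In each complex PBS 2 exceeded L-proline 1, so the groups overlapped. The L-proline means were 1.07, 1.10 and 1.09 times the PBS means for complex III, complex IV and ATP synthase. The sum over all listed genes also differed between libraries. It was 389441, 406675 and 390506 FPKM in PBS 1, 2 and 3 and 400789, 416799 and 408133 in L-proline 1, 2 and 3. The ratios given here are not corrected for this. These sets are unlike, since complex III includes 6 assembly factors, while assembly genes of the others are listed separately below. The 8 complex III subunits alone had a ratio of 1.04, a median log2 fold change of 0.008 and 1 call. The 6 assembly factors summed to 149 ± 10.2 FPKM in PBS and 197 ± 19.99 in L-proline. Most of this sum was Uqcc2 alone, at 119 ± 8.79 and 167 ± 17.6, and the other assembly factors had overlapping groups. The complexes were not tested against each other, and no difference between them is claimed.

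The spread within groups was shared across the genes. PBS 2 was the highest of the 3 PBS libraries for 39 of the 43 tested genes, against 41.4% of all tested genes. L-proline 1 was the lowest of the L-proline libraries for 37 of 43, against 42.1% of all tested genes. It was lowest for 12 of 14 complex III, 11 of 12 complex IV and 14 of 17 ATP synthase genes. Uqcc6 was the 1 gene with its lowest PBS value in PBS 2, and Uqcc3, Cox7b and Atp5mpl were the 3 genes with their highest L-proline value in L-proline 1. The mean log2(FPKM + 1) over the 43 was 6.64, 6.75 and 6.63 in PBS 1, 2 and 3 and 6.65, 6.80 and 6.80 in L-proline 1, 2 and 3. L-proline 1 therefore lay within the PBS range. The genes are accordingly not independent replicates of a condition.

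**Figure D4:**
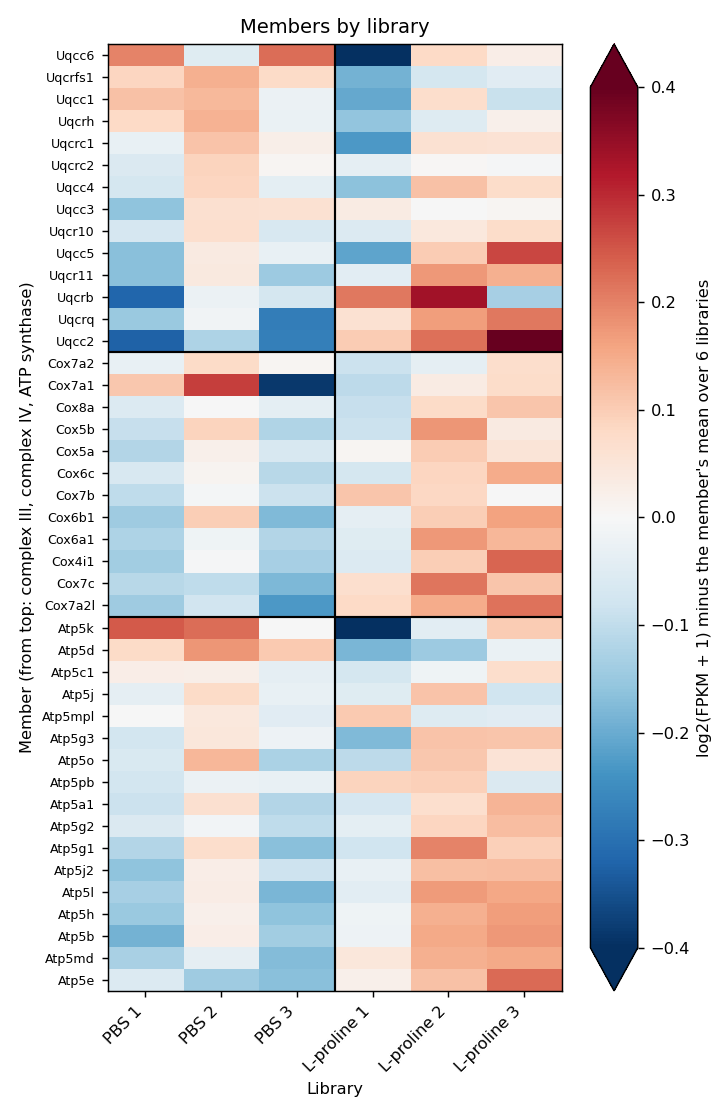
Each row is 1 of the 43 tested genes and each column 1 library, coloured by log2(FPKM + 1) minus the mean of that gene over the 6 libraries, with the colour scale ending at -0.4 and 0.4. Within PBS the second column is the highest for 39 genes, and within L-proline the first column is the lowest for 37.

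The partners encoded in the mitochondrial genome did not pass (limma, 0 of 6, 0 at an unadjusted p under 0.05, 0 with limma-voom). Cytochrome b (CYTB), the core of complex III, was 1983, 2125 and 2221 FPKM in PBS 1, 2 and 3 and 2254, 2361 and 1359 in L-proline 1, 2 and 3. COX1, the catalytic subunit of complex IV, was 7281, 6611 and 7626 against 8637, 8051 and 5413. L-proline 3 was the lowest of all 6 libraries for both, while it was the highest L-proline library for 23 of the 43 nuclear genes. COX2 and COX3, the other core subunits of complex IV, had PBS means of 90.2 ± 19.7 and 54.4 ± 14.8 FPKM and L-proline means of 84.9 ± 21.8 and 60.6 ± 12.7. ATP6 was 37.0 ± 7.96 and 41.3 ± 10.2, and ATP8, the other ATP synthase subunit encoded there, 8.85 ± 7.41 and 10.05 ± 6.92. Mitochondrial genes have near-identical copies in the nuclear genome, so the fragments assigned to each are uncertain. Cytochrome c1 (Cyc1) and cytochrome c (Cycs), nuclear genes that the symbols above do not cover, had log2 fold changes of 0.09 ± 0.08 and 0.04 ± 0.10 with overlapping groups.

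Complex IV also depends on assembly genes that the symbols above do not cover. Of 26 tested genes of this list, 4 rose and 1 fell, or 19.2%, against 19.6% of all tested genes, and the median log2 fold change was 0.09. Cox18, which inserts COX2 into the membrane, rose from 9.34 ± 0.954 to 14.2 ± 0.695 FPKM, or by 0.56 ± 0.09 on the log2 scale (limma, adjusted p = 0.00558). Cox11, which delivers copper to COX1, went from 4.77 ± 0.251 to 7.03 ± 0.0904 (0.48 ± 0.08, 0.00543). Cox14, which supports the making of COX1, went from 90.95 ± 4.26 to 116.9 ± 6.31 (0.36 ± 0.07, 0.0108, lost without PBS 1 at 0.0576 and without PBS 3 at 0.0642). Pet100, a further assembly factor, fell from 8.59 ± 0.255 to 5.38 ± 0.714 (-0.59 ± 0.10, 0.00577). Cox11, Cox18 and Pet100 passed under all 13 alternatives. The fifth, Ndufa4, a subunit of complex IV despite its name, rose from 274 ± 8.61 to 321 ± 11.6 and is named after its values were seen. Its adjusted p of 0.0370 was lost with limma-voom (0.0537), without any 1 of the 3 PBS libraries (0.152, 0.0585 and 0.1499 without PBS 1, 2 and 3), and without L-proline 1 (0.0513) or L-proline 2 (0.105).

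Of 7 tested ATP synthase factors 1 passed (14.3%, against 19.6% of all tested genes). Tmem242, which acts in assembly of the c-ring, rose from 41.7 ± 2.25 to 51.7 ± 3.68 FPKM (0.30 ± 0.08, limma, adjusted p = 0.0329). This was lost without PBS 1 (0.128), PBS 3 (0.141), L-proline 2 (0.0943) or L-proline 3 (0.0753). The inhibitor gene Atpif1, chosen after its values were seen, was 58.9 ± 3.34 and 61.3 ± 1.95. Of 4 tested complex III factors 0 passed (limma, 0 at an unadjusted p under 0.05, 0 with limma-voom).

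Complexes I and II feed electrons to complex III. Of 37 nuclear complex I subunits, 5 rose and 1 fell (16.2%, against 19.6% of all tested genes), with a median log2 fold change of 0.06. The 4 with the smallest p were Ndufb10 at 0.38 ± 0.08 (limma, adjusted p = 0.0144), Ndufs5 at 0.36 ± 0.08 (0.0188), Ndufa7 at 0.29 ± 0.07 (0.0208) and Ndufb4 at 0.36 ± 0.09 (0.0240). Each of these 4 calls was lost without PBS 1 (0.0610, 0.0871, 0.0844 and 0.0696 in that order), without PBS 3 (0.0775, 0.0849, 0.108 and 0.0961) and without L-proline 2 (0.05096, 0.0506, 0.0655 and 0.0756). Ndufb4 was also lost without PBS 2 (0.0676) or L-proline 3 (0.0604). The other two calls, named after their values were seen, were Ndufb6 at 0.38 ± 0.11 (adjusted p = 0.0421) and Ndufs4, which fell from 33.9 ± 1.73 to 27.8 ± 1.11 FPKM (-0.28 ± 0.07, adjusted p = 0.0327). Ndufb6 was lost with no filter (0.0596), limma-voom (0.0556), and without PBS 1 (0.139), PBS 3 (0.157), L-proline 2 (0.106) or L-proline 3 (0.0834). Ndufs4 was lost by median of ratios (0.0747), and without PBS 1 (0.0648), PBS 2 (0.106), PBS 3 (0.141) or L-proline 2 (0.0655). Of 4 complex II genes 1 passed (25%, against 19.6%), and this membrane anchor gene, Sdhd, fell from 75.95 ± 3.45 to 60.5 ± 4.05 FPKM (-0.32 ± 0.07, 0.0207), which did not hold without PBS 1 (0.0642), PBS 2 (0.0694) or PBS 3 (0.0758).

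Regulators of mitochondrial biogenesis did not pass in either direction (limma, 0 of 12, with 1, Yy1, lower at an unadjusted p of 0.0465, and 0 with limma-voom). The coactivator Ppargc1a, known to be abundant in heart muscle, whose markers were also mostly near 0 here, had group means of 0.0216 and 0.0182 FPKM. The transcription factors Nrf1, which binds the NRF-1 motif, and Gabpa, a GABP subunit, had log2 fold changes of -0.05 and -0.11 (the Gabpa model overlaps that of Atp5j), the receptor Esrra 0.18 and the mitochondrial factor Tfam -0.01. These 5 regulators are named for their part in the motif search or in biogenesis, after their values were seen. In the list of supercomplex and cristae genes, 1 of 14 fell (7.14%, against 19.6% of all tested genes), the cardiolipin-remodelling gene Tafazzin (log2 fold change -0.32 ± 0.08, adjusted p = 0.0353, lost under 8 of 13 alternatives with 0.0284 to 0.153 over all of them). In the list of ADP/ATP and phosphate carriers and outer membrane VDAC channels, 1 of 6 fell (16.7%, against 19.6%). It was a channel, Vdac1 (log2 fold change -0.24 ± 0.07, limma, adjusted p = 0.0481, lost under 7 of 13, with 0.0166 to 0.162), while the 3 carrier genes Slc25a3, Slc25a4 and Slc25a5 did not pass. Slc25a5 was higher in every L-proline library (0.21 ± 0.09, limma, adjusted p = 0.1301). Tafazzin was lost without PBS 1 (0.139), PBS 2 (0.0775), PBS 3 (0.123), L-proline 2 (0.0914) or L-proline 3 (0.0516). Vdac1 was lost without PBS 1 (0.162), PBS 2 (0.133), PBS 3 (0.1102), L-proline 1 (0.0735) or L-proline 2 (0.109).

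Most of the 45 genes had short models. The recovered lengths had a median of 757 bases, against 3576 for all tested genes, and ran from 320 for Atp5k to 10346 for Uqcc1. Across the 43 tested genes, which share libraries, log2 fold change and length had a Spearman correlation of -0.26, and over all 10500 tested genes it was -0.19. With mean FPKM the Spearman correlation over the 43 was 0.50. It was not computed over all tested genes, so it cannot be read as particular to these genes. Of the 45 genes, 14 had a model that overlaps another gene in the RefSeq table, and whether the counting used strand is not stated in the labels.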

How the data were processed

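Polyadenylated RNA from 3 PBS and 3 L-proline libraries was profiled. Per the labels' protocols, libraries came from 1.5 µg of RNA with a NEBNext Ultra kit and paired-end NovaSeq reads. GRCm39, HISAT2 and HTSeq 0.13.5 are named, without roles, per the submitters' processing notes. The authors deposited FPKM values, per the file headers, already scaled to gene length and library total, so a value depends on the gene model and on other abundant genes. Groups and numbers came from the sample titles.

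Library totals were solved from 13 mitochondrial genes, and whole fragments followed for 14407 of 14408 genes within a tolerance of 0.01. For 1 kb, 1 fragment is worth 0.0267 to 0.0286 FPKM, counting error only. The main test was limma 3.58.1 in R 4.3.3 on log2(FPKM + 1) (trend, two-sided, mean of at least 1 FPKM, Benjamini-Hochberg threshold 0.05), checked on simulated data. Folds on this scale understate changes of low genes. The simulated noise was independent for each gene and library, so that check does not cover the spread shared across genes described above. Alternatives were a pseudocount of 0.1, no filter, 3 other scalings, limma-voom on recovered fragments, a replicate block and leaving out each library. The members and lists were chosen with earlier results of these data known. Named genes are those that passed, isoform families, members under the filter, the most abundant and the 4 with the smallest p per complex, mitochondrial partners, Cyc1 and Cycs, and up to 4 called genes per further list. Other members are named so that each is accounted for.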

Additional observations from a re-analysis of the deposited data

How the results depend on the processing

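Of the 43 genes, 6 passed in the main comparison. Limma-voom gave 3, and for the complexes 1 in complex III and 0 in ATP synthase, where 4 had an unadjusted p under 0.05. Over all 10500 tested genes limma-voom gave 2038, with 3677 at an unadjusted p under 0.05. Leaving out the filter gave 1 in complex III and 1 in ATP synthase, and quantile normalization gave 4 in complex III. Over all genes, no filter gave 2116 of 14408 and quantile normalization 2094 of 10500. Leaving out 1 library at a time gave 0 to 10 over the 43 genes, 0 to 2 in complex III, 0 to 4 in complex IV and 0 to 4 in ATP synthase, and 874 to 2770 over all genes. The share of higher among all calls was 38.3% in the main comparison, 50.9% by median of ratios and 51.5% after quantile normalization. Over all alternatives the median log2 fold change ran from -0.03 to 0.07 in complex III, 0.10 to 0.17 in complex IV and 0.06 to 0.15 in ATP synthase, and no alternative moved a median from its main value by as much as the SD between libraries. No called gene changed sign, and 13 genes that did not pass changed sign without a call. Vdac1 alone among the named calls was lost with the block (adjusted p = 0.0573). For libraries with the same replicate number, correlations of deviations from the group mean were 0.65, 0.42 and -0.35. For differing numbers they ran from -0.75 to 0.53. With 3 libraries per group, whose deviations sum to 0, these values cannot decide whether the numbers pair the libraries. With the replicate block, 6 of the 43 genes and 2383 of all genes passed. The cause of these differences was not tested.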
